A study of Mus musculus with 16 samples.

Results

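The subject is a set of 43 imprinted genes of the mouse, picked by gene symbol from the expression tables of cortical neural stem cell (NSC) cultures, and all 43 were found among the 55365 lines that both tables share. They belong to 18 imprinted clusters or single loci. By textbook knowledge 22 are expressed from the paternal allele, 12 from the maternal allele, and 9 from an allele that depends on the tissue, cell type or isoform. The cultures came from C57BL/6 cortices taken at E15-16 from pooled embryos of mixed sex, and were transduced with lentivirus carrying a scrambled shRNA (shRNA CON) or an shRNA against the long noncoding RNA RUS (shRNA RUS). Both arms were grown with bFGF, also called FGF2, and moved to differentiation medium without it 5 days after seeding. RNA was taken on day 5 and on day 7 from 4 libraries per shRNA and day, 16 libraries in all. The cells were passaged up to 6 times, only 1 shRNA sequence against RUS was sequenced, and nothing in the sources ties a library to its own pool of embryos, so p-values measure the spread between these libraries, which may be technical.

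An imprinted gene is expressed mainly from the copy inherited from one parent, because DNA methylation laid down in the germ line at an imprinting control region is kept in body cells. Many imprinted genes lie in clusters in which a protein-coding gene expressed from one allele neighbours a long noncoding RNA expressed from the other. In the brain and in growing tissue they include growth factors, cell cycle inhibitors and regulators of neural stem cell quiescence and differentiation. The reads here were summed over both alleles and the strain is inbred, so the parental origin of a transcript was not measured and loss of imprinting cannot be told apart from a change in transcription of the active allele.

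Values are TPM, a measure of transcript abundance relative to all transcripts of a library, divided by a library factor within each day (scaled TPM), and the log2 fold change of a gene sets shRNA RUS against shRNA CON on the log2(scaled TPM + 0.1) scale, from limma with p-values adjusted over all genes tested. A gene was called at an adjusted p below 0.05, and means are given ± SD over the 4 libraries of a group. The libraries held 25612 to 29126 genes above 0 TPM, and their read depth is not known from these tables. The targeted transcript, listed as Gm20754, stood at 0.216, 0.107, 0.171 and 0.154 scaled TPM in the 4 shRNA CON libraries of day 5 and at 0.0543, 0, 0.128 and 0.317 in the 4 shRNA RUS libraries, or -0.40 ± 0.44 (SE) as a log2 fold change with an adjusted p = 0.519. On day 7 the values were 0.706, 0.715, 0.258 and 0.543 and 0.542, 0.380, 0 and 0.0396, or -1.28 ± 0.61 (SE) as a log2 fold change with an adjusted p = 0.114. The groups overlapped on both days, so these tables do not show the depletion of the target at its low level. By RT-qPCR the paper reports a reduced but not abolished RUS level in the knockdown cells of this experiment.

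Of the 43 imprinted genes, 39 passed the filter of a mean of 0.1 TPM on day 5 and 40 on day 7. Phlda2, a placental growth restrictor, Calcr, the calcitonin receptor, and Magel2, a ubiquitin ligase adaptor of the Snrpn cluster, reached at most 0.24, 0.10 and 0.13 TPM in any library and were tested on neither day. Rtl1, a retrotransposon-derived gene of the Dlk1-Dio3 domain, lay between 0.05 and 0.15 TPM on day 5, and its knockdown effect was tested on day 7 only. In the fit of all 16 libraries it passed the filter through its day 7 values.

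On day 5, 6 imprinted genes were called higher and 9 lower in shRNA RUS, and 24 did not pass the test. Over all 22581 genes tested 14.8% were called higher and 17.9% lower, against 15.4% and 23.1% of the imprinted genes. Libraries of both groups did not overlap for 15 of the 39 genes, 38.5%, beside 32.8% of all genes. The median log2 fold change was -0.11, and that of all genes was -0.06. With this scaling the imprinted genes of day 5 stood near the background in these measures. The split depended on the scaling. With TPM as deposited, which moved the median of all genes to -0.21, 4 were called higher (10.3%, beside 7.83% of all genes) and 16 lower (41.0%, beside 26.7%). With scaling to the 75th percentile 4 were higher (10.3%, beside 10.7%) and 12 lower (30.8%, beside 21.5%), so under both the share of lower calls was further above the background. Without replicate 1 of shRNA CON 5 genes were called lower, where 3245 of all 22414 genes were. Without replicate 3 of shRNA RUS 4 were called higher and 5 lower, where 2695 and 3249 of all 22646 genes were. Without replicate 4 of shRNA RUS the calls over all genes rose, from 3349 higher and 4034 lower to 3929 and 4593. Over all such removals the imprinted genes held 9 to 17 calls and 5 to 11 lower ones.

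On day 7, 14 were called higher, 12 lower and 14 neither way, so 35% of the 40 tested rose and 30% fell. Among all 24606 genes tested 23.4% rose and 25.8% fell. The groups did not overlap for 27 imprinted genes, 67.5%, beside 47.0% of all genes. Their median size of change, without regard to sign, was 0.34 on the log2 scale, and that of all genes was 0.38. The share called was thus above that of all genes tested, while the median size was below theirs. Among the 16333 genes averaging at least 1 TPM on day 7, 5386 rose and 5554 fell, a share called near that of the imprinted genes. These shares describe the list and were not tested against other lists.

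**Figure D1:**
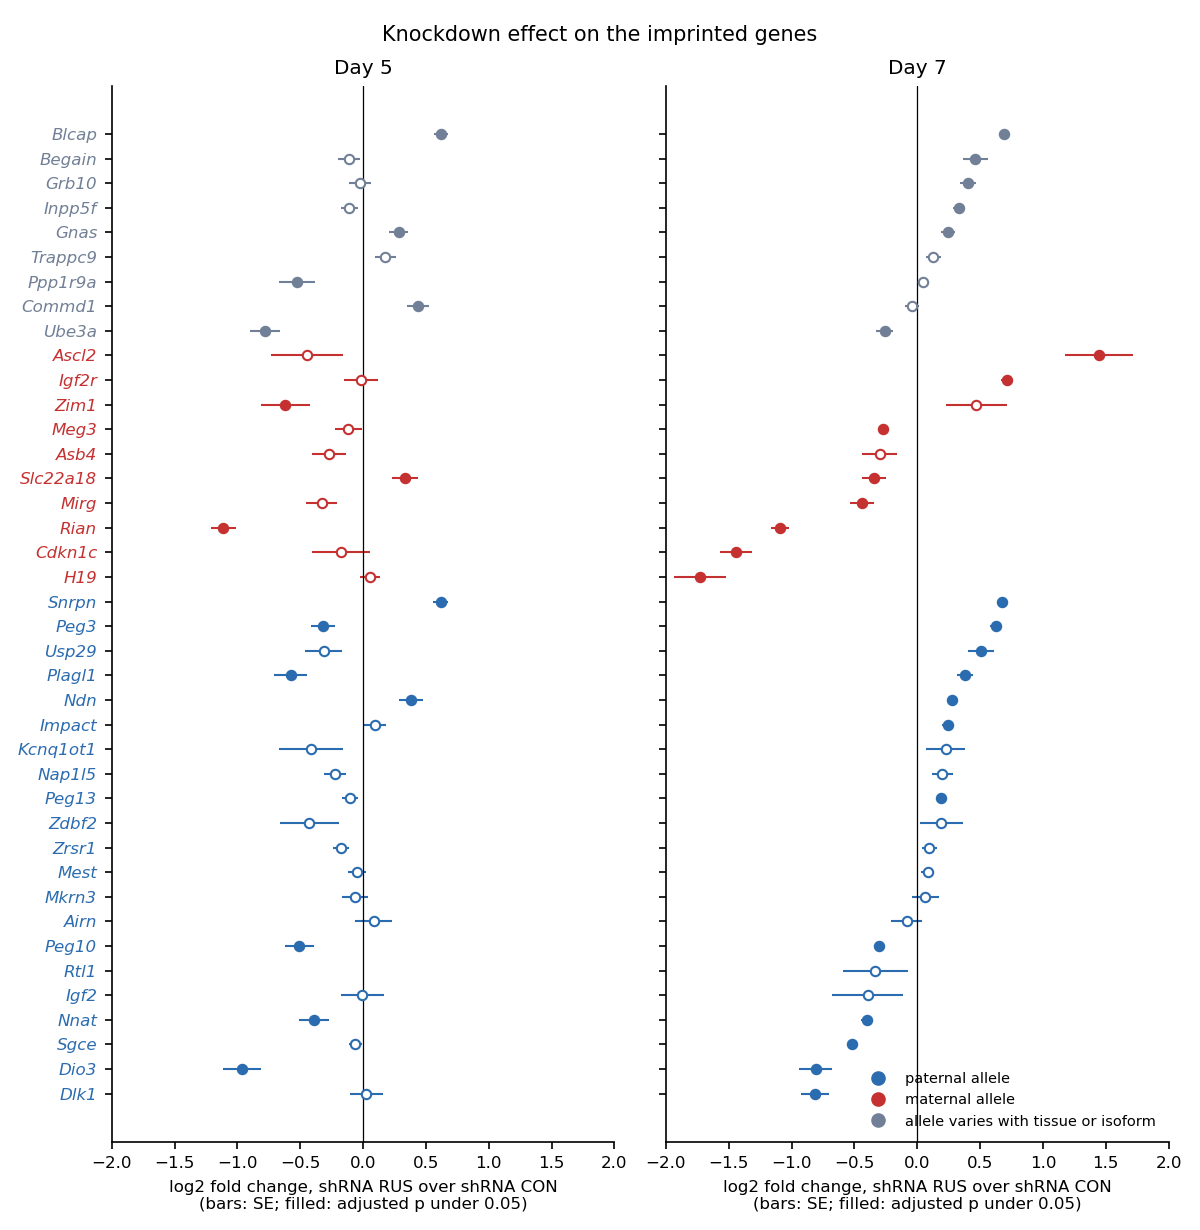
Log2 fold change, shRNA RUS over shRNA CON, of the imprinted genes tested, in the left panel for day 5 and in the right panel for day 7, with bars for the SE and filled points for an adjusted p below 0.05. Within each allele class the genes are ordered by their day 7 value, which runs from -1.73 for H19 to 1.44 for Ascl2.

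Paternally and maternally expressed genes were then set side by side. On day 5, 2 of 20 paternally expressed genes tested passed the test as higher and 5 as lower, and their median log2 fold change was -0.14. Of 10 maternally expressed genes 1 was higher and 2 lower, with a median of -0.22. Both classes held calls in both directions, and neither median lay far from that of all genes. These were 10% higher and 25% lower of the paternal class and 10% and 20% of the maternal class, beside 14.8% and 17.9% of all genes. On day 7, of 21 paternally expressed genes 7 rose (33.3%, beside 23.4% of all genes) and 5 fell (23.8%, beside 25.8%), with a median of 0.10. Of 10 maternally expressed genes 2 rose (20%) and 6 fell (60%), with a median of -0.32, while the median of all genes was -0.03. The 9 genes with a variable allele gave 3 higher (33.3%) and 2 lower (22.2%) on day 5, and 5 higher (55.6%) and 1 lower (11.1%) on day 7. When the genes with a variable allele were assigned to the allele most often reported, the maternal class of day 7 held 4 higher (25%) and 7 lower (43.8%) of 16 with a median of -0.15, and the paternal class 9 higher (39.1%) and 5 lower (21.7%) of 23 with a median of 0.19. The difference between the classes was not tested, because the 6 maternally expressed genes that fell on day 7 are not independent. Of these, 3 (Meg3, Rian and Mirg) lie in 1 cluster, and Cdkn1c and Slc22a18 lie together in another.

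The Dlk1-Dio3 domain on chromosome 12 holds 3 paternally expressed protein-coding genes, Dlk1, Rtl1 and Dio3, and a row of maternally expressed noncoding RNAs, Meg3, Rian and Mirg, that are transcribed in the same direction and host small nucleolar RNAs and microRNAs. These noncoding RNAs are known to be abundant in neurons. Meg3 lies at chr12:109541001-109571726, Rian at chr12:109603940-109661716 and Mirg at chr12:109729764-109749460 (GRCm38, all on the plus strand). The 150 bases that precede each RefSeq start are shown because the 3 RNAs changed by unequal amounts. Whether these stretches act as promoters or bear on the changes was not tested. For Meg3 and Rian the RefSeq start lies within 5 bases of the GENCODE start given above, but for Mirg it lies 5217 bases downstream of it, so the stretch shown for Mirg is inside the gene as GENCODE draws it. CG, the dinucleotide that carries DNA methylation, is in capitals.
Meg3, chr12:109540846-109540995, plus strand: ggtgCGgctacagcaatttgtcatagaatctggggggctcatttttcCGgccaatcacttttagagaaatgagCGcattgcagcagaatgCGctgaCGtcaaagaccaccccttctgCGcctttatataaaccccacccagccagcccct
Rian, chr12:109603795-109603944, plus strand: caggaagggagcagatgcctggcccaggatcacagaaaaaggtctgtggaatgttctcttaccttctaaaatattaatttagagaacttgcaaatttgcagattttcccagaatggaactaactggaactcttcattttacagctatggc
Mirg, chr12:109734831-109734980, plus strand: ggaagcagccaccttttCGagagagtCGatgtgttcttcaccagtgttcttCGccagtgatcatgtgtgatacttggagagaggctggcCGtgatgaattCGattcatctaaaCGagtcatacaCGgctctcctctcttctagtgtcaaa
The stretch before the RefSeq start of Meg3 held 6 CG and that of Mirg 7, while that of Rian held none. Over the same 150 bases of all 32851 RefSeq windows of the mouse (GRCm38.p6) the median was 4 CG, and 14.3% of windows had none.

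Rian was lower in shRNA RUS on both days. On day 5 it stood at 69.0, 64.2, 57.4 and 56.3 scaled TPM in the shRNA CON libraries and at 27.7, 25.9, 26.7 and 33.8 in the shRNA RUS libraries, with a log2 fold change of -1.11 ± 0.10 (SE) and an adjusted p = 6.56e-05. On day 7 the shRNA CON libraries read 169, 187, 171 and 191 and the shRNA RUS libraries 91.8, 89.6, 81.7 and 74.2, with a log2 fold change of -1.09 ± 0.07 (SE) and an adjusted p = 2.26e-06. Every shRNA RUS library lay below every shRNA CON library on both days, by a wide gap.

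Meg3, the first RNA of the row, changed far less than Rian. It read 131, 119, 109 and 121 scaled TPM in shRNA CON and 92.7, 108, 134 and 111 in shRNA RUS on day 5, where the groups overlapped (adjusted p = 0.435). On day 7 the values were 263, 270.1, 287 and 263 against 215, 225, 219 and 237, with a log2 fold change of -0.27 ± 0.04 (SE) and an adjusted p = 0.000507. The groups were then apart, but by a small margin beside that of Rian. Mirg, which hosts the largest number of annotated microRNAs among the imprinted genes (26), averaged 2.81 ± 0.213 and 2.23 ± 0.337 scaled TPM on day 5 (adjusted p = 0.0751) and 6.32 ± 0.562 and 4.63 ± 0.483 on day 7, where it was called lower with a log2 fold change of -0.44 ± 0.10 (SE) and an adjusted p = 0.00431.

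Within a library, the log2 ratio of Rian to Meg3 fell from a mean of -0.96 in shRNA CON to -1.96 in shRNA RUS on day 5 and from -0.59 to -1.41 on day 7, with no overlap of libraries on either day. The ratio of Mirg to Meg3 overlapped between the groups on both days. These ratios do not depend on the scaling between libraries and are given as a description. Rian therefore did not change in step with the RNAs on either side of it. Rian also hosts the microRNAs shown here from RefSeq, with the seed (bases 2 to 8) in capitals. Mature microRNAs were not measured in these libraries.
mmu-miR-341-5p: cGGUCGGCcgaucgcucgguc
mmu-miR-341-3p: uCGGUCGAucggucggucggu
mmu-miR-1188-5p: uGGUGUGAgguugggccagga
mmu-miR-1188-3p: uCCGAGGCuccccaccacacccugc
mmu-miR-370-5p: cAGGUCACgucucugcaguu
mmu-miR-370-3p: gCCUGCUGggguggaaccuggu
No 2 of these 6 share a seed.

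Of the paternally expressed genes of the domain, Dio3, the deiodinase that inactivates thyroid hormone, was low in both arms and lower in shRNA RUS on both days. It read 2.72, 2.36, 3.33 and 2.93 scaled TPM in shRNA CON and 1.20, 1.75, 1.28 and 1.41 in shRNA RUS on day 5, with a log2 fold change of -0.96 ± 0.15 (SE) and an adjusted p = 0.00133. On day 7 it read 2.90, 3.51, 3.38 and 2.49 and 1.68, 1.90, 1.53 and 1.68, with a log2 fold change of -0.81 ± 0.13 (SE) and an adjusted p = 0.000659. The groups were separate on both days. Dlk1, a membrane and secreted ligand of the Notch type that acts on postnatal neural stem cells, separated only on day 7. Its day 5 values were 29.4, 29.3, 30.5 and 36.3 in shRNA CON and 29.6, 38.0, 35.9 and 25.4 in shRNA RUS, overlapping, with an adjusted p = 0.901. Its day 7 values were 36.3, 37.2, 34.3 and 31.5 and 16.5, 17.9, 22.7 and 22.5, with a log2 fold change of -0.82 ± 0.11 (SE) and an adjusted p = 0.000195. The knockdown effect on Dlk1 differed between the days by -0.85 ± 0.18 (SE) on the log2 scale (adjusted p = 0.00223).

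Begain, which encodes a postsynaptic protein and lies at the far end of the domain, went the other way on day 7, from a mean of 12.5 ± 1.22 to 17.3 ± 2.00 scaled TPM with a log2 fold change of 0.46 ± 0.10 (SE) and an adjusted p = 0.00374. Rtl1 averaged 0.320 ± 0.102 and 0.225 ± 0.00652 on day 7 (adjusted p = 0.325). Rtl1 lies opposite to microRNA genes on the other strand, and the strand setting of the libraries is not stated in the sources used here, so its reads are uncertain. In all, 5 of the 7 genes of the domain tested on day 7 were lower, from both parental alleles, and 1 was higher, beside 25.8% and 23.4% of all genes, and 3 of the 5 (Meg3, Rian and Mirg) are neighbouring RNAs transcribed in the same direction and are not independent.

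**Figure D2:**
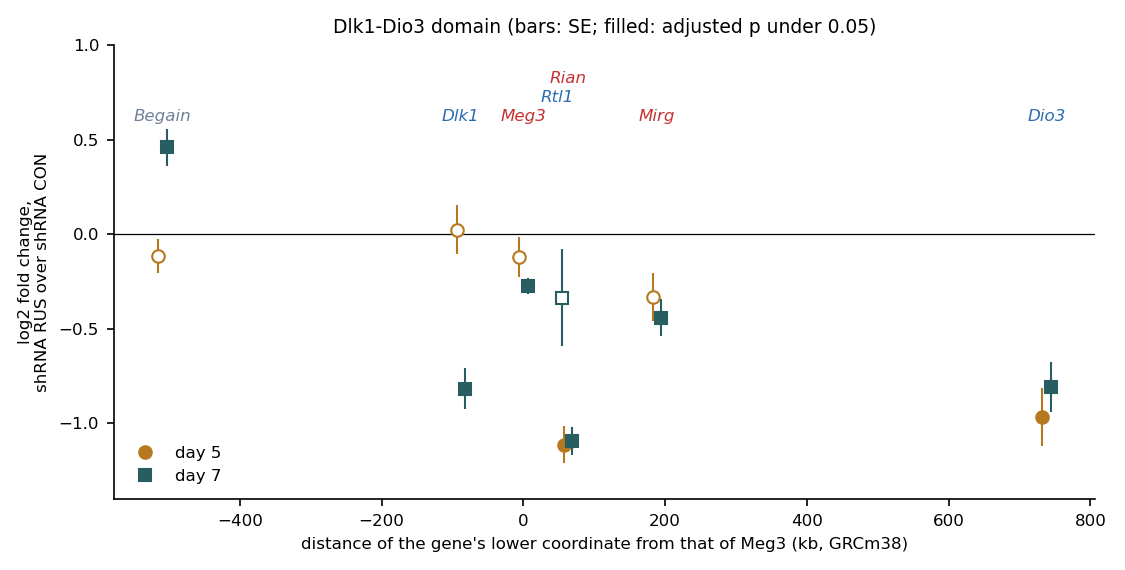
Log2 fold change, shRNA RUS over shRNA CON, of the genes of the Dlk1-Dio3 domain against the distance from Meg3 in kb (lower coordinates in GRCm38), with bars for the SE, filled points for an adjusted p below 0.05, and day 5 and day 7 points drawn slightly left and right of the gene. Rian and Dio3 were low on both days, and Dlk1 only on day 7.

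H19 is a maternally expressed noncoding RNA that shares enhancers with its paternally expressed neighbour Igf2, a fetal growth factor. It lies at chr7:142575529-142578143 on the minus strand (GRCm38). H19 hosts miR-675, whose mature sequences are shown from RefSeq with the seed in capitals because H19 had the largest fall of all imprinted genes tested. Mature microRNAs were not measured.
mmu-miR-675-5p: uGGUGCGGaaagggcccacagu
mmu-miR-675-3p: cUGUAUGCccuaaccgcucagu
On day 5 H19 overlapped between the arms, at 18.0, 21.4, 18.2 and 16.3 scaled TPM in shRNA CON and 18.8, 19.2, 19.6 and 18.8 in shRNA RUS (adjusted p = 0.655). On day 7 it read 5.90, 7.13, 6.70 and 8.63 in shRNA CON and 3.21, 1.63, 1.72 and 1.93 in shRNA RUS, with a log2 fold change of -1.73 ± 0.21 (SE) and an adjusted p = 9.42e-05. No library of shRNA RUS came near the control range on day 7. The difference of the effect between the days was -1.79 ± 0.24 (SE) on the log2 scale (adjusted p = 6.98e-05).

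Igf2 was near the low end of expression and showed no call. It stood at 1.46, 1.20, 1.52 and 1.62 scaled TPM in shRNA CON and 1.34, 1.64, 1.75 and 1.10 in shRNA RUS on day 5, and at 1.08, 1.56, 1.54 and 1.51 and 0.573, 1.74, 1.11 and 1.05 on day 7 (adjusted p = 0.984 and 0.285). The shRNA RUS libraries of day 7 spread over a wider range than the controls and included both the lowest and the highest value.

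A list of 18 genes around insulin-like growth factor (IGF) signalling held Igf1, receptors, receptor substrates, binding proteins and their proteases, and also the stanniocalcins Stc1 and Stc2, which inhibit such proteases, and the RNA-binding proteins Igf2bp1, Igf2bp2 and Igf2bp3, which bind Igf2 mRNA. On day 5, 2 were higher (11.1%, beside 14.8% of all genes) and 5 lower (27.8%, beside 17.9%), the latter being Insr, Irs2, Igf2bp2, Igf2bp3 and Stc1. On day 7, 5 were higher (27.8%, beside 23.4%) and 6 lower (33.3%, beside 25.8%), near the shares of all genes. Igfbp3, a secreted IGF binding protein, rose on both days, with log2 fold changes of 1.07 ± 0.07 and 0.92 ± 0.04 (SE) and adjusted p-values of 2.08e-05 and 2.9e-07. Igfbp2, another binding protein made by neural progenitors, fell on day 7 from a mean of 615 to 226 scaled TPM (log2 fold change -1.45 ± 0.07, SE) with an adjusted p = 5.66e-07. The receptor Igf1r rose on day 7 by 0.65 ± 0.05 (SE, adjusted p = 8.94e-06), and the insulin receptor Insr fell on day 5 (log2 fold change -0.90 ± 0.13, SE, adjusted p = 0.0009). The binding proteins thus did not move in one direction.

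On distal chromosome 7 the paternally expressed noncoding RNA Kcnq1ot1 silences neighbouring genes on its own chromosome, among them Cdkn1c, Slc22a18, Phlda2 and Ascl2, which are expressed from the maternal allele. Cdkn1c encodes p57, a cyclin-dependent kinase inhibitor that holds neural stem cells in quiescence and promotes cell cycle exit. It lay at 10.8, 12.1, 12.9 and 20.5 scaled TPM in shRNA CON and 13.4, 15.8, 11.996 and 8.38 in shRNA RUS on day 5, with wide overlap (adjusted p = 0.598). On day 7 it read 8.58, 8.43, 8.52 and 7.30 and 3.05, 3.55, 3.03 and 2.29, with a log2 fold change of -1.44 ± 0.13 (SE) and an adjusted p = 1.33e-05. All shRNA RUS libraries of day 7 lay far below the lowest control value. The effect differed between the days by -1.28 ± 0.28 (SE) on the log2 scale (adjusted p = 0.00309).

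Ascl2, a basic helix-loop-helix factor best known from the placenta and intestinal stem cells, moved in the opposite direction at a low level. It read 0.395, 0.332, 0.399 and 0.365 scaled TPM in shRNA CON and 0.326, 0.411, 0.202 and 0.119 in shRNA RUS on day 5 (adjusted p = 0.274), and 0.212, 0.298, 0.417 and 0.311 and 0.934, 0.841, 0.748 and 1.65 on day 7, with a log2 fold change of 1.44 ± 0.27 (SE) and an adjusted p = 0.0016. On day 7 all shRNA RUS libraries were above all controls, and replicate 4 was well above the other three. Slc22a18, a membrane transporter, averaged 4.65 ± 0.253 against 5.91 ± 0.742 on day 5, a call of higher that was lost in 10 of 17 alternative analyses, and 5.94 ± 0.370 against 4.68 ± 0.527 on day 7, a call of lower with a log2 fold change of -0.34 ± 0.10 (SE) and an adjusted p = 0.0141.

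Kcnq1ot1 itself was scarce. It overlaps Kcnq1 on the opposite strand and the strand setting is not stated, so its reads and its ratio to Cdkn1c are uncertain. It read 0.153, 0.215, 0.142 and 0.144 scaled TPM in shRNA CON and 0.0978, 0.0865, 0.0852 and 0.119 in shRNA RUS on day 5, and 0.565, 0.576, 0.565 and 0.683 and 0.733, 0.751, 0.668 and 0.703 on day 7. It was called on neither day (adjusted p = 0.251 and 0.26), though the day 5 groups did not overlap. The 3 maternally expressed genes tested on day 7 therefore included 1 that rose and 2 that fell.

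Airn is a paternally expressed noncoding RNA that overlaps the start of Igf2r on the opposite strand and silences Igf2r on the paternal chromosome, except in neurons, where Igf2r is expressed from both alleles. Igf2r encodes the receptor that binds Igf2 and mannose 6-phosphate and delivers Igf2 to lysosomes. It read 17.4, 15.3, 16.9 and 15.9 scaled TPM in shRNA CON and 12.5, 16.4, 15.8 and 21.2 in shRNA RUS on day 5, overlapping (adjusted p = 0.944). On day 7 it read 17.4, 17.9, 17.9 and 17.0 and 27.4, 29.9, 29.2 and 28.6, with a log2 fold change of 0.71 ± 0.04 (SE) and an adjusted p = 1.36e-06. The groups stood clearly apart on day 7, and the effect differed between the days by 0.72 ± 0.15 (SE) on the log2 scale (adjusted p = 0.00246). Airn showed overlapping groups on both days, with 3.87, 4.96, 4.79 and 4.08 against 5.04, 5.41, 5.03 and 3.48 on day 5 and 5.42, 5.06, 5.35 and 3.92 against 5.31, 4.00, 4.55 and 4.67 on day 7 (adjusted p = 0.702 and 0.613). Because the genes overlap and the strand setting is not stated, part of the reads of one could have been counted for the other.

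In the Peg3 domain Peg3, a zinc finger protein of the p53 and stress pathways, and Usp29, a ubiquitin protease, are expressed from the paternal allele and transcribed in opposite directions from RefSeq starts that lie 164 bases apart. Zim1, a zinc finger gene next to them, is expressed from the maternal allele. The 163 bases between both starts are shown because Peg3 and Usp29 moved together on day 7. CG is in capitals.
Peg3-Usp29, chr7:6730420-6730582, plus strand, read towards Usp29: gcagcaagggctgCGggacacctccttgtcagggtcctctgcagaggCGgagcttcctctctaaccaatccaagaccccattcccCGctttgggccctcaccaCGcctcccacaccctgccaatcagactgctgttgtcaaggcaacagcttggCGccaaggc
This stretch held 5 CG, and whether it bears on the changes of Peg3 and Usp29 was not tested.

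Peg3 stood at 17.7, 16.5, 17.1 and 15.4 scaled TPM in shRNA CON and 13.1, 12.2, 12.4 and 16.2 in shRNA RUS on day 5. Replicate 4 of shRNA RUS lay within the control range and the other three lay below it, and the call of lower with a log2 fold change of -0.32 ± 0.10 (SE) and an adjusted p = 0.0318 was lost in 9 of 17 alternative analyses. On day 7 it read 17.7, 18.8, 18.9 and 20.1 and 30.1, 28.8, 28.5 and 28.9, with a log2 fold change of 0.62 ± 0.05 (SE) and an adjusted p = 5.34e-06. The direction was thus opposite on both days and the difference between them was 0.93 ± 0.11 (SE) on the log2 scale (adjusted p = 2.96e-05). Usp29, present at a lower level, had means of 1.77 ± 0.199 and 1.41 ± 0.223 on day 5 (adjusted p = 0.127) and 3.08 ± 0.325 and 4.41 ± 0.407 on day 7, with a log2 fold change of 0.50 ± 0.10 (SE) and an adjusted p = 0.00277. Zim1 read 1.15, 1.07, 0.940 and 0.720 in shRNA CON and 0.619, 0.681, 0.447 and 0.634 in shRNA RUS on day 5, a call of lower (adjusted p = 0.0369) that was lost in 9 of 16 alternatives. On day 7 it read 0.394, 0.586, 0.367 and 0.452 and 0.743, 0.731, 0.807 and 0.406, overlapping (adjusted p = 0.139). All 3 genes of the domain, from both alleles, shifted upwards from day 5 to day 7 in shRNA RUS relative to shRNA CON, by 0.93 for Peg3, 0.81 for Usp29 and 1.08 for Zim1 on the log2 scale, each with a called difference (adjusted p = 2.96e-05, 0.00271 and 0.0133).

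Peg10, a retrotransposon-derived gene that makes virus-like capsids, and Sgce, the sarcoglycan mutated in myoclonus dystonia, are transcribed divergently from neighbouring starts on chromosome 6 and expressed from the paternal allele. Peg10 was lower in shRNA RUS on both days, with 30.7, 25.8, 26.1 and 25.8 scaled TPM against 18.0, 18.6, 16.4 and 23.7 on day 5 and 89.6, 92.8, 95.3 and 92.5 against 72.1, 78.0, 76.6 and 72.4 on day 7. The log2 fold changes were -0.51 ± 0.11 (SE) and -0.31 ± 0.04 (SE), with adjusted p = 0.00819 and 0.000119, and the groups did not overlap. Sgce changed on day 7 only, from 79.9 ± 1.04 to 55.9 ± 3.44, with a log2 fold change of -0.52 ± 0.05 (SE) and an adjusted p = 1.29e-05. Asb4, a maternally expressed ubiquitin ligase subunit, read 1.48, 1.17, 1.46 and 1.29 and 1.17, 1.18, 0.991 and 1.06 on day 5 and 1.53, 1.51, 1.87 and 1.72 and 1.44, 1.46, 1.37 and 1.07 on day 7. It was not called, with adjusted p = 0.157 and 0.108, although the day 7 groups did not overlap. Ppp1r9a, which encodes the actin-binding synaptic protein neurabin 1, averaged 13.04 ± 1.22 and 9.16 ± 2.07 on day 5, a call of lower that was lost in 3 of 17 alternatives, and 26.9 ± 0.713 and 27.8 ± 0.679 on day 7 (adjusted p = 0.352). No gene of the cluster rose on either day.

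The Snrpn cluster on central chromosome 7 corresponds to the human region of the Prader-Willi and Angelman syndromes. Snrpn, a core protein of the spliceosome expressed from the paternal allele, was higher in shRNA RUS on both days. It read 56.6, 57.4, 55.9 and 57.7 scaled TPM in shRNA CON and 88.2, 86.1, 96.1 and 79.5 in shRNA RUS on day 5, and 69.5, 67.6, 66.0 and 68.0 and 113, 109, 104 and 107 on day 7. The log2 fold changes were 0.62 ± 0.06 (SE) and 0.67 ± 0.04 (SE), with adjusted p = 0.00011 and 6.29e-07. The groups were widely separated on both days, and the effect did not pass the test for a difference between the days (difference 0.05 ± 0.07, SE).

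Ndn, the necdin gene that restrains proliferation of neural precursors, was also called higher on both days, from 38.6 ± 2.20 to 50.7 ± 6.41 on day 5 and from 44.2 ± 1.23 to 53.4 ± 1.90 on day 7 (adjusted p = 0.0128 and 0.000302). Replicate 4 of shRNA RUS on day 5, at 41.1, lay within the control range for Ndn. The log2 ratio of Ndn to Snrpn within a library overlapped between the groups on day 5, and on day 7 it fell from a mean of -0.62 to -1.02 with no overlap, so Ndn rose less than Snrpn. Mkrn3, a ubiquitin ligase known for its part in the timing of puberty, was called on neither day, with means of 2.37 ± 0.0516 and 2.27 ± 0.224 on day 5 and 3.44 ± 0.264 and 3.61 ± 0.434 on day 7.

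Ube3a, the ubiquitin ligase that is silenced on the paternal allele in neurons only, was lower on both days. Its day 5 values were 23.5, 21.9, 20.3 and 19.3 in shRNA CON and 12.9, 10.8, 10.8 and 15.2 in shRNA RUS, with a log2 fold change of -0.78 ± 0.12 (SE) and an adjusted p = 0.000998. Its day 7 means were 37.1 ± 2.58 and 30.9 ± 2.30, with a log2 fold change of -0.26 ± 0.07 (SE) and an adjusted p = 0.00904. The effect was smaller on day 7, by 0.51 ± 0.14 (SE) on the log2 scale (adjusted p = 0.0145). Snhg14, the host transcript whose far end runs antisense through Ube3a, was named after its values were seen: it rose on day 7 from a mean of 89.1 to 127 scaled TPM (log2 fold change 0.52 ± 0.06, SE) with an adjusted p = 6.65e-05, and was not called on day 5 (adjusted p = 0.604). Reads over the stretch where Ube3a and Snhg14 overlap cannot be assigned without strand.

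Nnat, the small membrane protein neuronatin expressed from the paternal allele, lies inside an intron of Blcap, a gene on the opposite strand whose main brain isoform is maternally expressed. Blcap rose in shRNA RUS on both days. It read 46.9, 42.8, 45.4 and 45.4 scaled TPM in shRNA CON and 67.7, 72.3, 73.4 and 64.6 in shRNA RUS on day 5, and 71.5, 71.6, 72.7 and 70.6 and 118, 114, 115 and 117 on day 7. The log2 fold changes were 0.62 ± 0.06 (SE) and 0.69 ± 0.03 (SE), with adjusted p = 7.91e-05 and 1.94e-07. The replicates were tight and the groups far apart. Nnat fell on both days, from 326 ± 36.6 to 249.8 ± 37.7 on day 5 and from 722 ± 17.7 to 546 ± 35.9 on day 7 (log2 fold changes -0.39 ± 0.12 (SE) and -0.40 ± 0.05 (SE), adjusted p = 0.0345 and 8.62e-05), and its day 5 call was lost in 7 of 17 alternatives. The log2 ratio of Nnat to Blcap within a library fell from a mean of 2.84 to 1.83 on day 5 and from 3.33 to 2.24 on day 7, with no overlap on either day. Because Nnat and Blcap overlap on opposite strands and the strand setting is not stated, part of the reads of one could have been counted for the other.

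**Figure D3:**
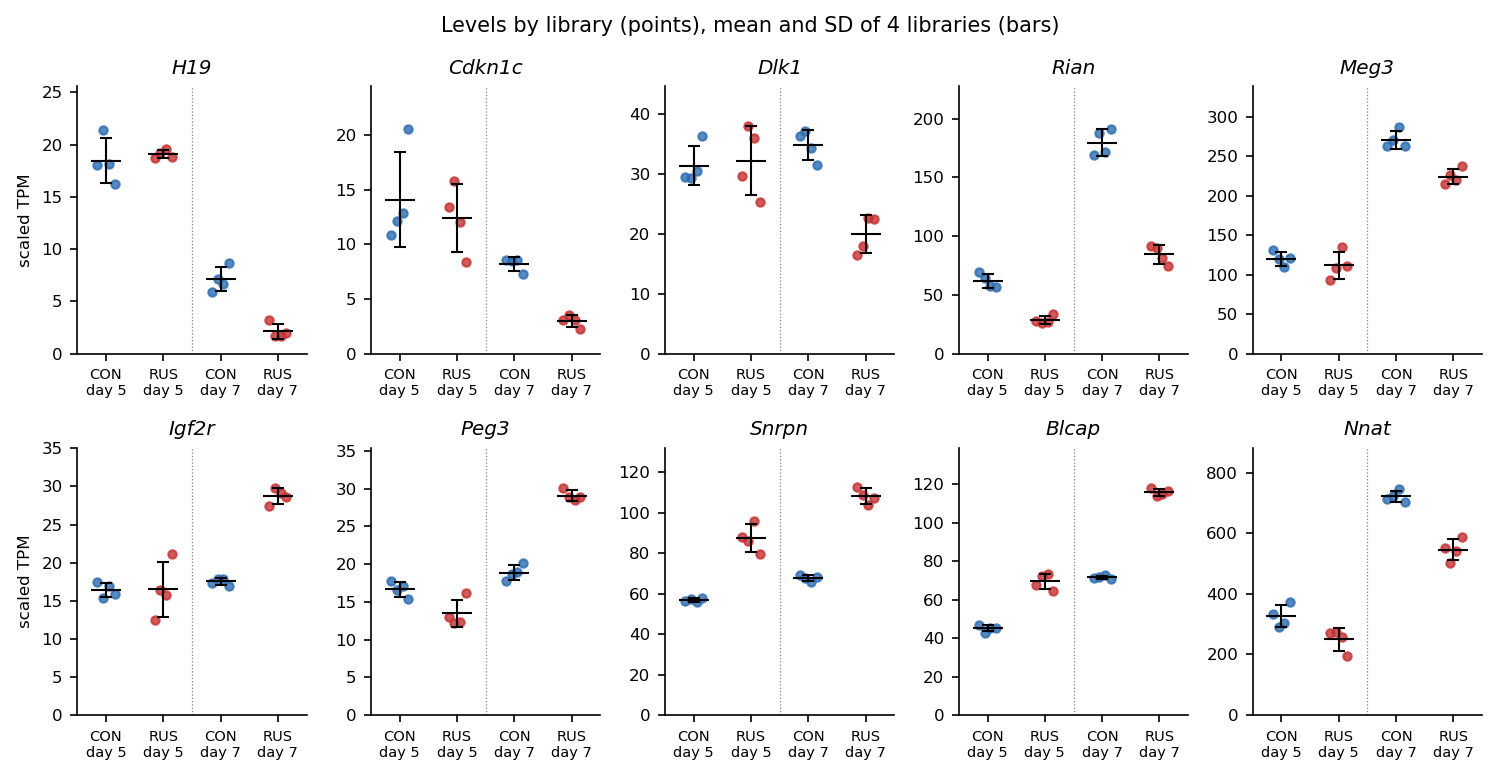
Scaled TPM of 10 imprinted genes in every library (points, blue for shRNA CON and red for shRNA RUS) with the mean and SD of 4 libraries, each day scaled on its own on either side of the dotted line. Snrpn and Blcap were higher and Rian lower on both days, H19, Cdkn1c and Dlk1 separated on day 7 only, and Peg3 crossed over.

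Among growth and signalling genes outside these clusters, Plagl1, a paternally expressed zinc finger factor that arrests the cell cycle, fell on day 5 from 33.2 ± 3.48 to 22.4 ± 4.45 scaled TPM (-0.58 ± 0.13 (SE), adjusted p = 0.00977) and rose on day 7 from 54.6 ± 3.57 to 71.1 ± 4.74 (0.38 ± 0.06 (SE), adjusted p = 0.000648). Its effects on the days differed by 0.95 ± 0.16 (SE) on the log2 scale (adjusted p = 0.00046). Plagl1 and Peg3 were the only imprinted genes called lower on day 5 and higher on day 7, and Slc22a18 the only one called the other way round. Grb10, an adaptor that dampens insulin and IGF receptor signalling and is paternal in neurons and maternal elsewhere, was called on day 7 only, from 11.8 ± 0.751 to 15.6 ± 0.844 (adjusted p = 0.000546). Gnas, the stimulatory G protein alpha subunit, was the most abundant imprinted gene, at 1364 ± 86.4 against 1661 ± 124 on day 5 and 1219 ± 85.8 against 1444 ± 67.3 on day 7. It was called higher on both days (adjusted p = 0.0175 and 0.00458), but on day 5 the direction turned under quantile normalization.

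Smaller calls among the remaining loci were confined to single days. Commd1, a copper metabolism gene that hosts Zrsr1 in an intron on the opposite strand, rose on day 5 from 130.0 ± 8.95 to 177 ± 19.3 (adjusted p = 0.00438) and showed adjusted p = 0.536 on day 7. The same uncertainty of strand holds for Commd1 and Zrsr1. On day 7 Inpp5f, an inositol phosphatase with a paternally expressed brain isoform, rose from 37.4 ± 1.04 to 47.2 ± 2.94, Impact, a regulator of translation in neurons, from 77.5 ± 2.24 to 91.7 ± 5.57, and Peg13, a noncoding RNA inside Trappc9, from 25.0 ± 0.634 to 28.6 ± 0.903 (adjusted p = 0.000387, 0.00215 and 0.00319). The Peg13 call was lost with scaling to the 75th percentile. Not called on either day were Mest, a hydrolase and growth-associated gene at 82.6 ± 3.87 and 87.5 ± 5.91 on day 7, Nap1l5 at 31.4 ± 2.39 and 36.2 ± 4.04, Zdbf2 at 1.21 ± 0.238 and 1.39 ± 0.220, Trappc9 at 27.5 ± 0.889 and 30.1 ± 2.30, and the splicing factor gene Zrsr1 at 23.4 ± 0.785 and 25.1 ± 1.98.

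For 6 pairs of neighbours expressed from opposite alleles, the log2 ratio of the paternally to the maternally expressed partner was formed within each library and compared with an exact two-sided permutation test, for which 4 against 4 libraries allow no p below 0.0286. On day 7 Dlk1/Meg3 fell from -2.96 ± 0.12 in shRNA CON to -3.50 ± 0.21 in shRNA RUS (mean ± SD, n = 4), Kcnq1ot1/Cdkn1c rose from -3.57 ± 0.23 in shRNA CON to -1.91 ± 0.23 in shRNA RUS (mean ± SD, n = 4), and Airn/Igf2r fell from -1.82 ± 0.19 in shRNA CON to -2.61 ± 0.22 in shRNA RUS (mean ± SD, n = 4), each with the smallest exact p of 0.0286 and, adjusted over the 12 tests, 0.114. None of the 12 tests passed after adjustment. With 3 tests at the smallest possible p, adjustment over 12 tests cannot give a value below 0.05, however large the shifts. The adjusted values therefore do not decide whether these ratios changed, and the shifts are given as values. In Kcnq1ot1/Cdkn1c and Airn/Igf2r the maternally expressed partner was the one called by itself, lower in the former and higher in the latter. Igf2/H19 on day 7 ran -2.24 ± 0.18 in shRNA CON to -0.91 ± 1.01 in shRNA RUS (mean ± SD, n = 4) with an exact p of 0.0857, and its shRNA RUS libraries spread widely. Peg3/Zim1 and Peg10/Asb4 overlapped on both days, as did all 6 pairs on day 5. The pairs did not shift towards one parental allele together.

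**Figure D4:**
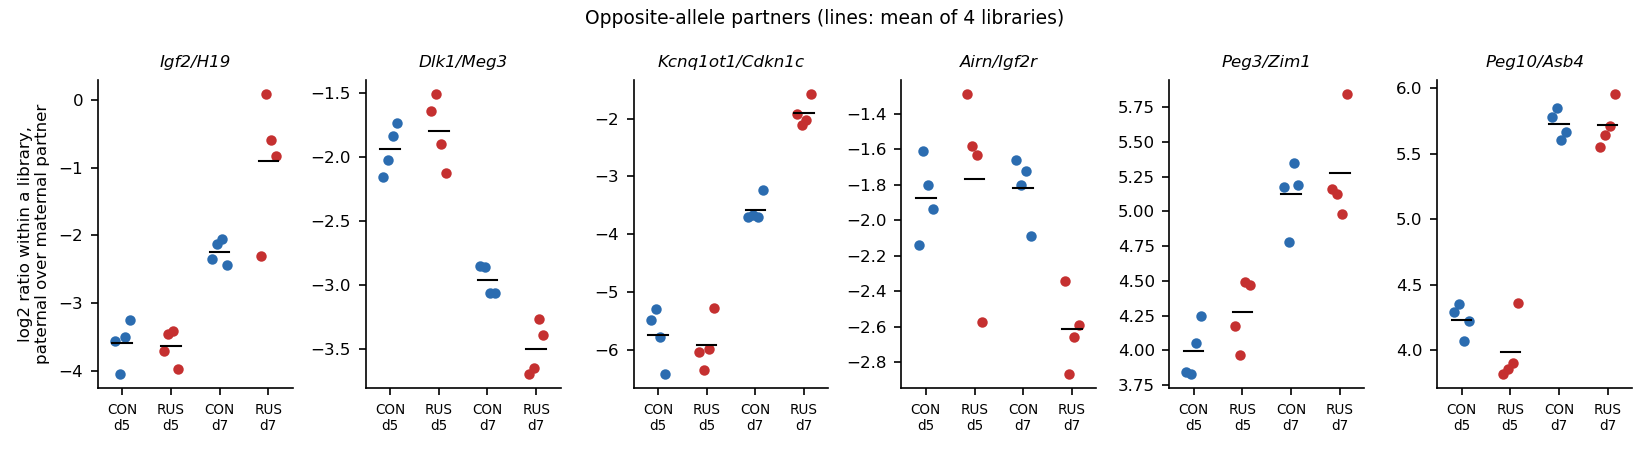
Log2 ratio of the paternally over the maternally expressed partner within each library, for 6 neighbouring pairs in the 4 groups (points, with lines for the mean of 4 libraries, each panel with its own axis). On day 7 Dlk1/Meg3 and Airn/Igf2r were lower and Kcnq1ot1/Cdkn1c higher in shRNA RUS without overlap.

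Between day 5 and day 7 the imprinted genes also moved within each arm, here with all 16 libraries in one fit and one common scaling. In shRNA CON 17 of 40 rose and 11 fell, where 26.9% of all 23789 genes rose and 21.6% fell, and the days did not overlap for 29 of the 40, beside 46.9% of all genes. Among the 15899 genes averaging at least 1 TPM, 5014 rose and 4704 fell, larger shares than over all genes. Of the paternally expressed imprinted genes 11 of 21 rose (52.4%) and 2 fell (9.52%), and of the maternally expressed ones 3 rose and 3 fell of 10 (30% each). Rtl1, which averaged 0.095 TPM on day 5 in shRNA CON, passed the filter only through day 7. It counts among the genes that rose, in total and in the paternal class. Peg10 rose from a mean of 29.5 to 85.7, Rian from 67.1 to 166, Meg3 from 131 to 251 and Nnat from 354 to 668 scaled TPM. H19 fell from 20.1 to 6.57, Mest from 198 to 76.5, Begain from 34.4 to 11.6 and Cdkn1c from 15.3 to 7.60. Each of these 8 changes had an adjusted p of at most 0.000816, the value for Cdkn1c.

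In shRNA RUS 20 of the 40 rose and 11 fell, beside 35.0% and 25.8% of all genes, and the days did not overlap for 30, beside 52.5%. The genes that rose again include Rtl1. Among the 15899 genes averaging at least 1 TPM, 6296 rose and 5487 fell, larger shares than over all genes. With TPM as deposited 26 imprinted genes rose (65.0%, beside 49.6% of all genes) and 7 fell (17.5%, beside 14.9%), as that scaling moved the median of all genes from 0.13 to 0.41. H19 fell further than in shRNA CON, from 20.7 to 1.95, and so did Cdkn1c, from 13.5 to 2.73. Dlk1, which was not called in shRNA CON, fell from 35.0 to 18.2 (adjusted p = 9.32e-06), and Peg3 and Igf2r, also not called there, rose from 14.6 to 26.7 and from 17.9 to 26.4 (adjusted p = 1.02e-07 and 0.000203). These comparisons share libraries with those above. The deposited tables of the days differ in make, so the size of a change over time depends on how they were scaled, and for Grb10, Ndn, Asb4 and Gnas in shRNA RUS the direction turned under 1 other scaling.

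The knockdown effect itself differed between the days for 21 of 40 imprinted genes, 52.5%, where 29.8% of all genes were called. For 15 the effect was higher on day 7 (37.5%, beside 15.2% of all genes) and for 6 it was lower (15%, beside 14.6%). With TPM as deposited 18 were higher (45.0%, beside 24.0%) and 6 lower (15%, beside 8.63%). Beside the genes given above, the called differences were 1.87 for Ascl2, 0.64 for Kcnq1ot1, 0.56 for Begain, 0.56 for Ppp1r9a, 0.43 for Inpp5f, 0.42 for Grb10, 0.41 for Nap1l5, 0.28 for Peg13 and 0.26 for Zrsr1 (those of Kcnq1ot1, Zrsr1 and Nap1l5 were lost in 19 of 24, 14 of 25 and 2 of 25 alternatives), and -0.69 for Slc22a18, -0.49 for Commd1 and -0.47 for Sgce. Rian, Dio3, Snrpn, Blcap and Nnat, which were called in the same direction on both days, did not pass this test.

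Imprints are kept in dividing cells by DNA methyltransferases and by zinc finger proteins such as ZFP57 and ZFP445, which bind methylated control regions and recruit TRIM28. A list of 20 genes that maintain, establish, read or remove methylation or act with these proteins had 19 tested. On day 5 none was called higher, beside 14.8% of all genes, and 8 were called lower (42.1%, beside 17.9%), and on day 7, 11 rose (57.9%, beside 23.4%) and 4 fell (21.1%, beside 25.8%). The list mixes opposite functions: Tet1, Tet2 and Tet3, which oxidise methylated cytosine and lead to its removal, are 3 of the 11 that rose on day 7, and Tet3 is 1 of the 8 that were lower on day 5. Hells, a chromatin remodeller needed for DNA methylation, fell on both days, with log2 fold changes of -1.47 ± 0.15 and -1.07 ± 0.10 (SE) and adjusted p = 0.000143 and 2.47e-05. Uhrf1, which guides the maintenance methyltransferase to replicating DNA, fell by 0.75 and 0.91, and Dnmt1, that methyltransferase, fell by 0.69 and 0.32 (adjusted p = 5.33e-05, 7.3e-06, 0.000131 and 4.01e-05). Zfp57 was lower on day 5 (log2 fold change -0.24 ± 0.06, SE) and higher on day 7 (0.42 ± 0.06, SE), with adjusted p = 0.0185 and 0.000494. Hells, Uhrf1 and Dnmt1 are also genes of dividing cells. DNA methylation was not measured here, and whether these levels bear on the imprinted genes was not tested.

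ZFP57 is known to bind methylated TGCCGC. This hexamer, searched on both strands (TGCCGC or GCGGCA) in windows from 250 bases before to 50 after each RefSeq start, was present for 12 of the 35 imprinted genes with a window (34.3%) and for 13.1% of all 27025 genes, or 11.6% of all windows. By class it was present for 7 paternally expressed genes (41.2%), 3 maternally expressed genes (30.0%) and 2 with a variable allele (25.0%). A match describes the letters and is not evidence of binding. Taking for each gene its window with the most CG, the imprinted genes had a median of 17 CG and all genes 8. The hexamer itself holds a CG, and a gene counted as a match if any of its windows held it. Whether the share of matches exceeds what CG content and the number of windows give was not tested. H19, Trappc9, Rtl1, Impact, Cdkn1c, Peg10, Peg13 and Sgce had no window here. Of the 12 genes 11 were tested. On day 5 Commd1 and Snrpn were called higher (18.2%, beside 14.8% of all genes) and Nnat, Plagl1 and Zim1 lower (27.3%, beside 17.9%), and on day 7 Grb10, Plagl1 and Snrpn were higher (27.3%, beside 23.4%) and Meg3 and Nnat lower (18.2%, beside 25.8%). A match lay before the start in 7 of the 12, and the 40 bases around it are shown, with the hexamer in capitals, for the 3 of these that were called on at least 1 day. The RefSeq start of Plagl1 used here lies 30328 bases downstream of its GENCODE start, inside the gene.
Meg3, chr12:109540789-109540828, plus strand: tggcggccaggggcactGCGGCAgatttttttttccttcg
Zim1, chr7:6696433-6696472, minus strand: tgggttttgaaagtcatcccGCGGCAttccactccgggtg
Plagl1, chr10:13090725-13090764, plus strand: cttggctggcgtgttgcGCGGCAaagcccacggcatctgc

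Of 41 further genes reported as imprinted in some tissue or lying beside these clusters, 32 were tested. On day 5, 7 were higher and 6 lower, and on day 7, 9 were higher and 8 lower. These were 21.9% and 18.8% on day 5, beside 14.8% and 17.9% of all genes, and 28.1% and 25.0% on day 7, beside 23.4% and 25.8%. On day 7 Atp10a, a phospholipid flippase next to the Snrpn cluster, fell by 0.95 on the log2 scale, Dhcr7, a cholesterol synthesis enzyme, fell by 0.82, and Phactr2 and Osbpl5, a lipid transfer protein gene, rose by 0.75 and 0.72 (adjusted p = 8.73e-06, 1.98e-06, 1.91e-06 and 3.33e-06).

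Several imprinted genes differ in level between cell types, and markers of the cell types of these cultures moved too. In bulk RNA fewer cells of a type and less RNA per cell cannot be told apart. The calls of all marker lists below stand beside those of all genes, 14.8% higher and 17.9% lower on day 5. On day 7 these shares of all genes were 23.4% and 25.8%. The summed scaled TPM of 7 neural stem cell and radial glia markers ran from 11410 to 13440 in shRNA CON and from 16310 to 19490 in shRNA RUS on day 5, and from 7294 to 7634 and from 7646 to 8423 on day 7, with Vim and Fabp7 making up most of each sum. On day 5 Vim, Fabp7 and Pax6 were called higher and Nes and Hes5 lower, and on day 7 Vim and Pax6 were higher and Nes, Hes5 and Slc1a3 lower. All 7 were above the filter on both days, and Hes5 was the scarcest, with group means of 4.49 to 8.95. The 5 astrocyte markers summed to 2877 to 3005 and 3780 to 3951 on day 5, again with shRNA CON first, and to 1668 to 1701 and 1808 to 2046 on day 7, higher without overlap on both days. Gfap was called higher on both days and carried the sum, with means of 1699.7 and 2571 on day 5, when the other four were not called. On day 7 Aldh1l1 was also higher and S100b lower.

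Other marker sums were lower in shRNA RUS on both days. The 6 markers of the oligodendrocyte lineage summed to 89.7 to 111 and 55.7 to 68.4 on day 5, with 4 called lower, and to 190.7 to 223 and 103 to 154 on day 7, with 5 lower. The 6 of choroid plexus summed to 24.0 to 26.6 and 17.7 to 22.2 on day 5 and to 40.6 to 43.5 and 27.4 to 28.2 on day 7, with 2 of 5 tested called lower on each day and 1 higher on day 5. The 5 endothelial markers summed to 5.12 to 5.45 and 2.62 to 3.57 on day 5 and to 6.53 to 6.97 and 2.64 to 3.55 on day 7. Kdr was the only one of them called, lower on both days, and carried the sum, with day 7 means of 6.30 and 2.51. Pecam1 and Tek had log2 fold changes of 0.38 and 0.35 on day 7 without a call, and Cdh5 and Cldn5 were under the filter.

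Sums that overlapped on day 5 and separated on day 7 were those of 2 lists. The 8 markers of fibroblasts, pericytes and meninges summed to 29.8 to 34.1 and 29.4 to 40.7 on day 5 and to 17.1 to 19.5 and 36.0 to 40.9 on day 7, with 2 and 4 of 7 tested called higher and none lower. The 6 microglia markers summed to 71.6 to 76.3 and 61.3 to 78.0 on day 5, with 2 lower (33.3%, beside 17.9% of all genes). On day 7 they summed to 193.9 to 209 and 82.9 to 106, with all 6 lower, beside 25.8% of all genes. The 7 neuronal markers summed to 334 to 418 and 313 to 338 on day 5, with 2 called higher and 2 lower, and to 746 to 828 and 749 to 875 on day 7, with 4 higher and 1 lower, and overlapped on both days. The part of these cell types in the levels of the imprinted genes was not tested.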

How the data were processed

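The polyA-enriched RNA of 16 libraries was sequenced on an Illumina sequencer, aligned with STAR to mm10 with the GRCm38.99 transcripts and quantified with RSEM. The authors deposited 1 table per day with a TPM value per gene and library. The remaining columns (log2 fold change and its standard error, mean signal, test score, p-value and adjusted p-value, deposited by the authors) hold their DESeq2 comparison and were not used. The libraries' strand setting is not given in the sources used here. Lines that name no gene were left out. No pair of libraries held identical values. The members, the gene lists and the tests were chosen with earlier results of these data known.

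TPM of each library was divided by its median ratio to the geometric mean over genes of at least 1 TPM in all libraries of the fit (factors 0.92 to 1.11 on day 5, 0.991 to 1.01 on day 7, and 0.845 to 1.10 over both days). Genes averaging 0.1 TPM or more were tested on log2(scaled TPM + 0.1), which understates changes of low genes, with limma 3.58.1 (eBayes with trend) in R 4.3.3, two-sided, with Benjamini-Hochberg adjustment over all genes tested. Each day was fitted on its own 8 libraries, and changes over time and the difference of the effects in all 16. Ratios within libraries were compared with exact permutation tests (scipy 1.17.1, Python 3.11.15). The procedure was tested on simulated data. All 43 members are named. Values per library are given for calls with a log2 fold change of at least 0.58 in size and for the 6 pairs, and of the listed context genes up to 4 examples per list. Positions are from GENCODE vM21 (GRCm38), sequences from RefSeq (GRCm38.p6), matched by symbol. Alternatives were other added values, filters and scalings, eBayes without trend, a replicate block, broad allele classes, and each library left out.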

Additional observations from a re-analysis of the deposited data

Results flagged for a closer look

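In groups of 4 libraries, 11 of 158 sets of values held a library that stood apart from the other three by Dixon's criterion, where chance alone flags about 1 in 20. On day 5 these were shRNA CON replicate 4 for Dlk1 (36.3 scaled TPM, others 29.3 to 30.5) and for Mkrn3 (2.30, others 2.39 to 2.40), shRNA CON replicate 2 for Kcnq1ot1 (0.215, others 0.142 to 0.153), shRNA CON replicate 1 for Usp29 (2.07, others 1.64 to 1.70) and for Peg10 (30.7, others 25.8 to 26.1), and shRNA RUS replicate 4 for Ndn (41.1, others 52.6 to 54.6). On day 7 these were shRNA CON replicate 1 for Igf2 (1.08, others 1.51 to 1.56), shRNA CON replicate 2 for Rtl1 (0.169, others 0.362 to 0.387), shRNA CON replicate 4 for Cdkn1c (7.30, others 8.43 to 8.58) and for Kcnq1ot1 (0.683, others 0.565 to 0.576), and shRNA RUS replicate 3 for Zrsr1 (22.1, others 25.9 to 26.2). No library held more than 2 of them. This rule does not flag a library that lies nearer the other arm in many genes. On day 5 replicate 4 of shRNA RUS lay nearest the controls in its group for Peg10 (23.7), Plagl1 (28.5), Ppp1r9a (12.2) and other called genes. It did not for Dio3, Zim1, Nnat and Gnas. Without this library 3929 of 22583 genes were called higher and 4593 lower on day 5, beside 3349 and 4034 of 22581 with it.

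The knockdown effect differed between day 7 and day 5, by the test of the difference itself in limma, for 21 genes. The log2 differences, day 7 minus day 5, were negative for H19 (-1.79), Cdkn1c (-1.28), Dlk1 (-0.85), Slc22a18 (-0.69), Commd1 (-0.49) and Sgce (-0.47). They were positive for Ascl2 (1.87), Zim1 (1.08), Plagl1 (0.95), Peg3 (0.93), Usp29 (0.81), Igf2r (0.72), Kcnq1ot1 (0.64), Begain (0.56), Ppp1r9a (0.56), Ube3a (0.51), Inpp5f (0.43), Grb10 (0.42), Nap1l5 (0.41), Peg13 (0.28) and Zrsr1 (0.26). H19, Dlk1 and Cdkn1c had no call on day 5 and Peg3 and Plagl1 turned direction.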

How the results depend on the processing

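Of the 26 calls of day 7, 25 held in each alternative in which the gene was tested (17, or 16 for Ascl2, which a filter of 1 TPM leaves out), the exception being Peg13 with scaling to the 75th percentile. Of the 15 calls of day 5, 9 held throughout, and Slc22a18, Peg3, Zim1, Nnat, Gnas and Ppp1r9a lost theirs in at least 1. Of the calls over time, 5 of 28 in shRNA CON (Sgce, Mkrn3, Gnas, Zdbf2 and Zrsr1) and 6 of 31 in shRNA RUS (Igf2, Rtl1, Sgce, Mkrn3, Gnas and Trappc9) were lost or reversed in at least 1 alternative, and of the 21 called differences between the days 3 were lost in at least 1 (Kcnq1ot1, Zrsr1 and Nap1l5). With TPM as deposited 16 members were lower on day 5 in place of 9, the medians on day 5 were -0.30 for paternally and -0.37 for maternally expressed genes, and in shRNA RUS over time 7 were lower in place of 11. The paternal median of day 5 was -0.084 with a filter of 1 TPM, -0.085 without a filter and -0.22 with scaling to the 75th percentile. The maternal median of day 7 was -0.15 with broad classes. Under quantile normalization the log2 change of Gnas was -0.029 on day 5, 0.22 over time in shRNA RUS and 0.37 for the difference between the days, and that of Asb4 over time in shRNA RUS was -0.32. With TPM as deposited those of Grb10 and Ndn over time in shRNA RUS were 0.31 and 0.17. Leaving out 1 library left 9 to 17 calls on day 5 and 5 to 11 lower ones. Over all genes the same removals left 2629 to 3929 higher and 3107 to 4593 lower, beside 3349 and 4034 with every library. The cause of these shifts was not tested.

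Replicate numbers gave no clear pairing of the libraries. Same-numbered libraries of both shRNAs correlated between -0.226 and -0.0245 on day 5 in their deviations from the group means, and between 0.023 and 0.11 on day 7. Such weak correlations cannot tell whether same-numbered cultures shared a preparation. With a replicate block 10 members were called on day 5 in place of 15, 26 on day 7, and 19 in place of 21 for the difference between the days. The calls over all genes fell too. Of 22581 on day 5, 2231 were higher and 2735 lower, in place of 3349 and 4034. Of 24606 on day 7, 5330 and 5895 were, in place of 5766 and 6342. For the difference, 3365 and 3257 of 23789 were, in place of 3626 and 3464. The tables give no read counts, so the precision of genes near 0.1 TPM is unknown.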
